A study of Mus musculus with 5 samples.

Results

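The cells described here are endothelial cells of the atherosclerotic mouse aortic arch that hold RNA of Plvap or Selp and of neither Klk10 nor Stmn2. Each had at least 1 unique molecular identifier (UMI, a tag that marks 1 captured RNA molecule) for at least 3 of the 5 endothelial genes Cdh5, Pecam1, Ptprb, Egfl7 and Ramp2, and a UMI of Plvap or Selp. None had a UMI of the leukocyte genes Ptprc and Cd68, of the aortic endothelial genes Klk10 and Stmn2, or of the lymphatic gene Ccl21a, and fewer than 2 of the 4 capillary genes Fabp4, Rgcc, Gpihbp1 and Sprr1a were seen. This left 485 of 18260 cells, or 485 of the 1434 cells that met the endothelial, leukocyte and Ccl21a parts of the rule. By library, 115 and 117 members came from Apoe-/- replicates 1 and 2, and 92, 83 and 78 from Oasl1-/-Apoe-/- replicates 1, 2 and 3. The 3 other endothelial classes were 717 cells with Klk10 or Stmn2, 41 capillary-like cells with at least 2 of the 4 capillary genes, and 187 cells with none of these genes in the needed number, while 4 cells held aortic and capillary genes together.

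The study compared single cells of the aortic arch of Apoe-/- mice, which lack apolipoprotein E, develop atherosclerosis and carry both normal copies of Oasl1 (their titles call them wild type), with those of Oasl1-/-Apoe-/- mice, which also lack Oasl1, a member of the interferon-induced oligoadenylate synthetase-like family. All mice were Apoe-/- and ate normal chow for 28 weeks, and the Oasl1 deletion was in every cell of the animal. Aortas of 6 mice were pooled, and droplet 3′ RNA sequencing of the sorted live cells gave 2 Apoe-/- and 3 Oasl1-/-Apoe-/- libraries. The sources used here do not say whether the libraries of a group came from separate pools, so p-values measure the spread between these libraries, which may be technical.

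Plvap encodes the protein of the diaphragms that span endothelial fenestrae and caveolae, and in adult vessels it is typical of veins, venules and fenestrated capillaries. Selp encodes P-selectin, which endothelial cells store with von Willebrand factor in Weibel-Palade bodies and bring to the surface to capture rolling leukocytes. The large-artery lining is normally low in both genes, and vasa vasorum and inflamed endothelium are known places where they are found.

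The libraries held 3212 to 4338 cells and 16959976 to 19813039 UMIs. Members had a median of 3437 and 3154 UMIs per cell in the Apoe-/- libraries against 4302, 4428 and 4506 in the Oasl1-/-Apoe-/- libraries, so the deeper cells were all on one side. Oasl1 itself had 27 and 16 UMIs over all cells of the Apoe-/- replicates, but 299, 257 and 315 in the libraries labelled Oasl1-/-Apoe-/-, which goes against the labels. The allele is described as lacking the promoter region and an early exon. The 3′ tags lie outside the deleted part, so they cannot show whether that part is missing. Why the counts were higher in libraries labelled as lacking the promoter was not tested. Among the members Oasl1 was listed at 0 in both Apoe-/- libraries and had 2, 3 and 4 UMIs in the Oasl1-/-Apoe-/- libraries, and every direction below rests on the labels. Between libraries 165 cell barcodes were shared, and 12 members had a barcode that another library also held, in no case as a member. Values are mean UMIs per 10,000 UMIs of a cell (CP10K), averaged over the cells of a library.

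Promoter stretches of genes that differed between the genotypes in these cells are shown first, since their 2 largest groups, interferon-induced genes and genes of antigen presentation, have well-known promoter elements. RefSeq promoters (GRCm38.p6, 250 bases before to 50 after the start site) were searched on both strands for the interferon-stimulated response element, spelled GAAA, any 2 bases and GAAA again, and for the Y box of antigen presentation genes, spelled CTGATTGG. The first was in 3.99% of 27025 promoters and the second in 4.70%. Among the 4478 promoters of genes tested these shares were 4.31% and 6.21%. Of the 69 genes that were higher in the Oasl1-/-Apoe-/- libraries 48 had a promoter in the table, and 12 of these held the first and 8 the second element, against 2 and 0 of the 20 promoters of genes that were lower. Among higher genes of the interferon list 8 of 9 promoters held the first, beside 21 of 34 over the whole list whatever the change. Among higher genes of the antigen presentation list 6 of 11 held the second, beside 9 of 20 over that whole list. Each element was thus common in its list as a whole, not only among the genes that rose. In the lines below capitals mark the element, and each stretch is written 5′ to 3′ on the strand of its gene.
B2m, chr2:122147538-122147567, + strand, element 139 bases before the start site: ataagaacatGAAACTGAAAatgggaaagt
Isg15, chr4:156200865-156200894, - strand, element 66 bases before the start site: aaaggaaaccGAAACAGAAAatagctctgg
Igtp, chr11:58199512-58199541, + strand, element 34 bases before the start site: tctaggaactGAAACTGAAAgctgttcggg
Ifit1, chr19:34640794-34640823, + strand, element on the opposite strand, 85 bases before the start site: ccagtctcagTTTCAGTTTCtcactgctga
Gbp2, chr3:142620594-142620623, + strand, element on the opposite strand, 59 bases before the start site: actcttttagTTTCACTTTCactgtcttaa
H2-Aa, chr17:34287856-34287885, - strand, Y box 51 bases before the start site: aagagaattttCTGATTGGttctggcgagt
H2-Eb1, chr17:34305794-34305823, + strand, Y box 62 bases before the start site: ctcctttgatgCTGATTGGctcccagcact
H2-D1, chr17:35263030-35263059, + strand, Y box on the opposite strand, 53 bases before the start site: gattccaggagCCAATCAGcgtcgccgcgg
The Isg15 promoter held 3 overlapping matches and that of Ifit1 held 2, of which 1 each is shown. A match shows only that these letters are in the window.

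The members were endothelial by the rule, and their venous character rested mainly on the genes of the rule. A list of 25 endothelial genes, which holds the 5 of the rule, summed to 105 to 118 CP10K in the 5 libraries. That all 485 members had a UMI of at least 3 of them follows from the rule. Of the 5 genes given as markers of the class, Plvap (GENCODE gene ENSMUSG00000034845, chr8:71497765-71511752 of GRCm38) was seen in 80.4% and Selp (ENSMUSG00000026580, chr1:164115264-164150026) in 63.3% of members, both as parts of the rule. Smooth muscle cells, which should lack both and had median depths of 4650 to 5259 UMIs, showed Plvap in 12.4% and Selp in 1.66%. Emcn, the endothelial sialomucin endomucin that marks veins and capillaries, was seen in 57.9% of members, against 25.9% of Klk10/Stmn2 cells and 0.117% of 9403 smooth muscle cells. Vwf, von Willebrand factor, averaged 5.62 ± 0.396 CP10K (SD, n = 5 libraries) in members and 6.19 CP10K in Klk10/Stmn2 cells, so it did not set the classes apart. Nr2f2, the transcription factor of venous identity, and Ackr1, the chemokine-binding receptor of venules, were seen in 5.77% and 2.89% of members, and Nr2f2 in 22.7% of the smooth muscle cells, so no venous level of it can be read here. The data therefore carry the name Plvap/Selp endothelial cells better than that of venous cells.

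Arterial genes were present in members, at a lower sum than in Klk10/Stmn2 cells. The 24 arterial genes, which include Klk10 and Stmn2, summed to 179 to 209 CP10K in members and to 254 to 300 in Klk10/Stmn2 cells. Alpl was listed at 0 in members. Cytl1, a secreted protein abundant in mouse aortic endothelium, averaged 94.8 CP10K in members and 156 in Klk10/Stmn2 cells, and the gap junction gene Gja4 averaged 4.14 and 4.34. Gkn3, an arterial marker of the mouse, averaged 4.42 in members and 7.34 in Klk10/Stmn2 cells. Endocardial genes summed to at most 1.07 CP10K in any library. Prox1, the defining lymphatic transcription factor, was seen in 1.24% of members, and the 10 lymphatic genes summed to 1.10 and 0.815 CP10K in the Apoe-/- against 5.53, 2.37 and 2.76 in the Oasl1-/-Apoe-/- libraries. Of the members 9 held 3 or more of these genes, all in the Oasl1-/-Apoe-/- libraries (4, 3 and 2 cells). At least 3 of the 5 smooth muscle markers were seen in 83 members, at least 3 of the 5 fibroblast markers in 56, and at least 3 of the 6 macrophage markers in 11. Smooth muscle markers summed to 16.3 to 26.0 CP10K, with Acta2 in 62.9% of members, and pericyte, Schwann cell, mesothelial, platelet, lymphocyte and cycling markers to at most 2.13 CP10K in any library. Adipocyte markers were listed at 0 in every member.

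The rule cuts a range. Of the members 129 had exactly 1 UMI of Plvap and Selp together, 84 had 2 and 272 had at least 3. At its edges, 57 members had exactly 3 of the 5 endothelial genes while 49 cells with 2 were left out, and 118 members had 1 capillary gene while 21 cells with 2 were left out. Of the 717 Klk10/Stmn2 cells, 435 also had Plvap or Selp, so holding these 2 genes was not particular to the members. Of the 435, 118 were outside the rule only by a single UMI of Klk10 or Stmn2. Levels between classes are therefore described, with no test.

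Beside the Klk10/Stmn2 cells, the genes outside the rule that stood higher in members included Ctla2a, Igfbp7, Emcn and Dcn. Ctla2a, a mouse inhibitor of cathepsin-type proteases, was at 23.1, 15.4, 25.2, 26.6 and 18.4 CP10K in the members of the 5 libraries (Apoe-/- replicates first, here and below) and at 2.998, 2.81, 2.78, 4.03 and 4.86 in the Klk10/Stmn2 cells. The ranges did not overlap, and Ctla2a was seen in 67.0% of members, 31.2% of Klk10/Stmn2 cells and 0.840% of smooth muscle cells. With each cell thinned to 1500 UMIs these shares were 57.8%, 19.2% and 0.301%. Igfbp7, a secreted protein of small-vessel endothelium, averaged 12.7 ± 1.36 CP10K in members against 3.40, although smooth muscle cells held it at 79.7. The 41 capillary-like cells, with 3 to 12 in a library, averaged more than the members for Ctla2a (51.2 ± 53.0), Igfbp7 (49.7 ± 13.8), Emcn (8.50 ± 4.14) and Dcn (20.1 ± 8.46), so these genes set the members apart from Klk10/Stmn2 cells and not from every other class.

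Dcn, the matrix proteoglycan decorin and usually a fibroblast gene, was in 59.4% of members, 25.1% of Klk10/Stmn2 cells and 11.1% of smooth muscle cells. At least 3 of the 5 fibroblast markers, Dcn among them, were seen in 11.55% of members and 2.93% of Klk10/Stmn2 cells. The part of fibroblast RNA in the Dcn values was not tested. The other genes described in this group were Cebpb and Sox4 (transcription factors), Mdk, the growth factor midkine, Frzb, a secreted Wnt antagonist, Thbs1, the matrix protein thrombospondin 1, Ddah1, which degrades an inhibitor of nitric oxide synthase, Fabp5, a fatty acid carrier, the cytoskeletal genes Marcksl1 and Tubb3, and Oaf. Their median log2 differences over libraries ran from 1.14 for Fabp5 to 2.66 for Ctla2a. Capillary-like cells averaged more than members for Cebpb (4.44 against 2.01 CP10K), Fabp5 (5.23 against 1.705), Marcksl1, Mdk, Sox4 and Tubb3. They averaged less for Frzb, Oaf, Ddah1 and Thbs1. The remaining endothelial cells averaged more than members for Thbs1 (9.08 against 8.70) and less for the other genes of this paragraph.

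Among the genes lower in members, Cldn5 had the largest fall. Cldn5, the main endothelial tight junction claudin, was at 2.44, 3.70, 3.25, 3.58 and 2.13 CP10K in members and at 9.86, 11.4, 8.40, 9.91 and 8.36 in Klk10/Stmn2 cells. Every library of the members was thus below every library of the other class. Podxl, the sialomucin podocalyxin of the luminal surface, averaged 1.25 ± 0.124 CP10K against 3.42. Timp3, Ly6c1, Emp2, Ptprj, Mob2 and Klk8 were the other 6 of the 8 genes with the largest falls, with median log2 differences of -1.04 to -1.57 including Cldn5 and Podxl. Capillary-like cells averaged less than members for Timp3 (5.89 against 9.41 CP10K), Emp2 (0.668 against 2.31), Ptprj, Klk8 and Podxl. They averaged more for Cldn5 (8.71 against 3.02), Ly6c1 and Mob2. Nos3, the endothelial nitric oxide synthase, averaged 1.61 CP10K in members and 2.70 in Klk10/Stmn2 cells, and was lower in all 5 libraries.

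**Figure D1:**
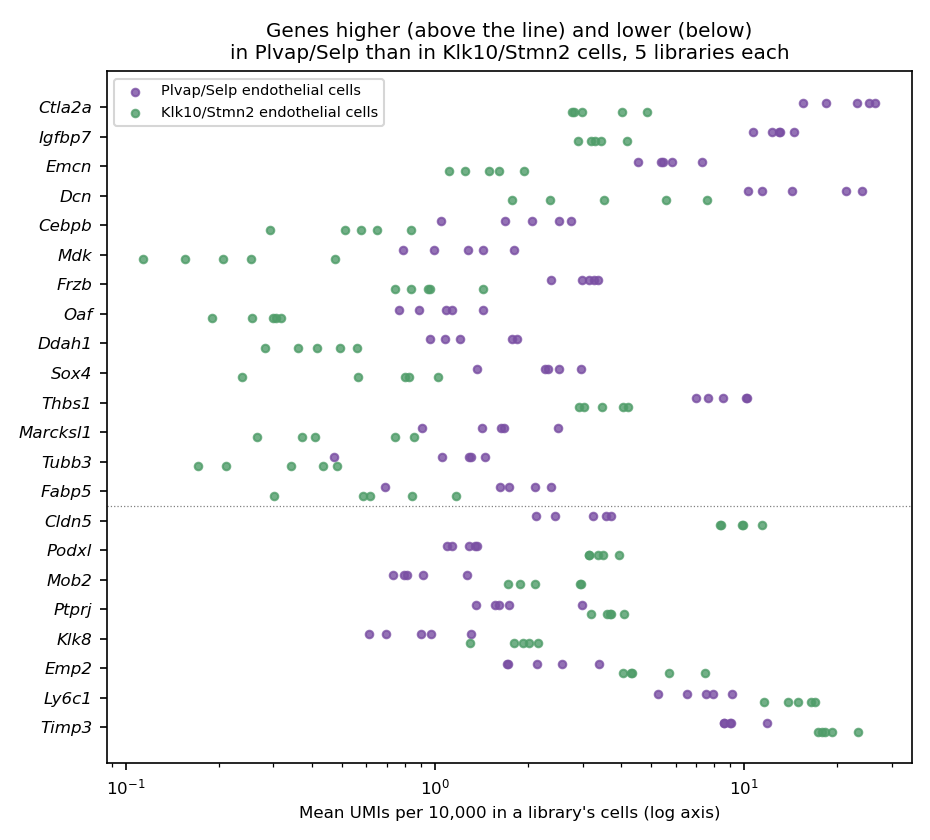
Mean UMIs per 10,000 (horizontal log axis) of 14 genes among those with the largest median rise and the 8 with the largest fall in Plvap/Selp cells (violet) beside Klk10/Stmn2 cells (green), 1 point per library and class. Cldn5 lay between 2.13 and 3.70 in Plvap/Selp cells and between 8.36 and 11.4 in Klk10/Stmn2 cells.

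The members were not uniform. Both Plvap and Selp were seen in 212, Plvap alone in 178 and Selp alone in 95. Cells with Selp alone were 32 of 115 and 28 of 117 members in the Apoe-/- libraries and 11 of 92, 14 of 83 and 10 of 78 in the Oasl1-/-Apoe-/- libraries, so the mix differed between the genotypes. Ctla2a averaged 35.6 ± 5.79 CP10K (SD, n = 5 libraries) where both were seen, 13.3 ± 4.32 with Plvap alone and 5.79 ± 2.91 with Selp alone. Emcn followed the same order at 8.01 ± 1.38, 4.26 ± 1.47 and 3.05 ± 1.502, and Lrg1, a secreted glycoprotein that modulates TGF-β signalling in vessels, at 5.50 ± 1.38, 3.53 ± 2.28 and 0.546 ± 0.421.

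Cldn5 was lowest where both were seen, at 1.87 ± 0.544 CP10K, against 4.09 ± 1.37 with Plvap alone and 3.54 ± 1.48 with Selp alone. Vwf showed no such order, at 5.84 ± 0.863, 5.15 ± 1.14 and 6.25 ± 2.43. A deeper cell is more likely to show both transcripts. The depth of these groups of members was not measured, and the part of depth in these values was not tested.

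The members made up 29.9% (Wilson 95% interval 25.5% to 34.6%) and 30.3% (25.9% to 35.1%) of the gated endothelial cells in the Apoe-/- libraries. In the Oasl1-/-Apoe-/- libraries they made up 39.3% (33.3% to 45.7%), 36.1% (30.2% to 42.5%) and 39.2% (32.7% to 46.1%). The group values were 30.1% ± 0.312 (SD, n = 2) and 38.2% ± 1.83 (SD, n = 3), which did not overlap (exact two-sided permutation p = 0.1, the smallest that 10 assignments allow). Thinned to 1500 UMIs per cell, the shares were 28.5% ± 0.411 and 35.1% ± 4.78 (exact permutation p = 0.2). Of all cells of a library the members were 2.76% ± 0.0869 and 2.57% ± 0.144, with overlap, while gated endothelial cells as a whole were 9.17% ± 0.384 and 6.73% ± 0.513. Of the endothelial cells, Klk10/Stmn2 cells were 53.1% ± 3.58 and 46.4% ± 3.69 and the remaining cells 15.7% ± 3.09 and 9.88% ± 2.56, while the capillary-like cells were 0.908% ± 0.182 and 5.17% ± 0.879. The larger share of members was thus a share of a smaller endothelial compartment, in which the capillary-like share was also larger. Fewer Klk10/Stmn2 and remaining cells and more members cannot be told apart from shares. Intervals cover counting error only.

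**Figure D2:**
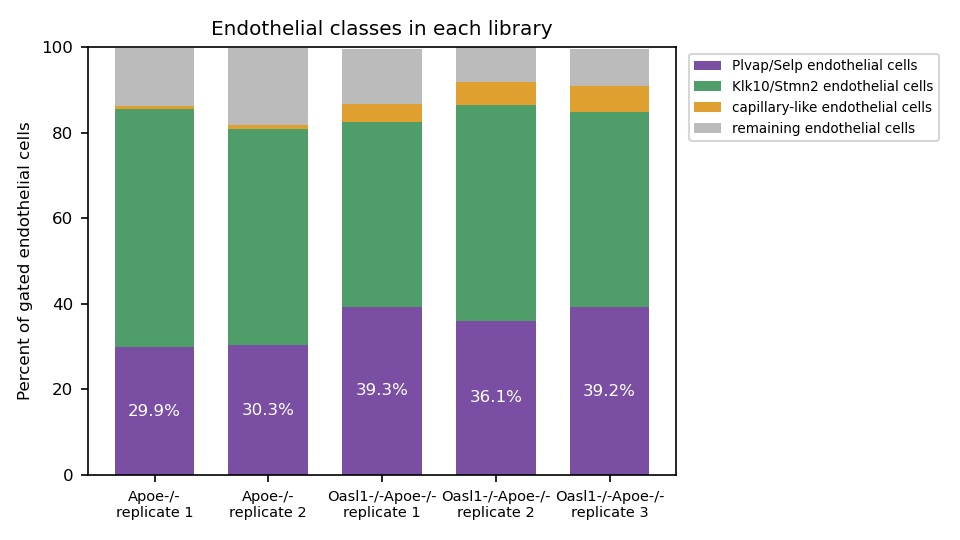
Percent of gated endothelial cells (vertical axis) in each class for the 5 libraries. Plvap/Selp cells made up 29.9% and 30.3% in Apoe-/- and 36.1% to 39.3% in Oasl1-/-Apoe-/- libraries.

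Between the genotypes, 5636 genes with a mean of at least 0.2 CP10K were tested in the members with limma on log2(CP10K + 0.2). At a Benjamini-Hochberg adjusted p under 0.05, 69 genes rose in Oasl1-/-Apoe-/- libraries (1.22% of those tested) and 25 fell (0.444%), together 1.67%. The groups' libraries did not overlap for 26.6% of the genes tested. Differences are on this log2 scale, which understates changes of low genes, and adjusted p-values below are from this limma fit.

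Interferon-induced genes were the largest group among the rises. Of 46 listed genes 38 were tested, 15 rose and none fell, with a median log2 difference of 0.84 beside 0.01 over all genes tested. Ifi27l2a, a small interferon-induced membrane protein (ENSMUSG00000079017, chr12:103442167-103443680), was at 0.0564 and 0.0257 CP10K in the Apoe-/- and at 2.61, 1.95 and 1.94 in the Oasl1-/-Apoe-/- libraries. It was close to absent from the first group, with UMIs in 4 cells, and the groups did not overlap (log2 difference 3.29, SE 0.22, adjusted p = 2.7e-09). In smooth muscle cells of the same libraries Ifi27l2a was at 0.186 and 0.193 against 2.80, 3.47 and 2.99 CP10K, above the members in each library, and the part of free RNA in the members' values was not tested.

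Isg15, the ubiquitin-like modifier made in response to interferon (ENSMUSG00000035692, chr4:156199424-156200818), was at 0.351 and 0.346 CP10K against 2.16, 0.903 and 1.63. Igtp, an interferon-inducible GTPase (ENSMUSG00000078853, chr11:58199556-58207591), was at 0.374 and 0.339 against 1.32, 1.10 and 1.54. Both were higher in 3 of 3 libraries, with log2 differences of 1.62 (SE 0.25, adjusted p = 0.00056) and 1.44 (SE 0.21, adjusted p = 0.0003). Their promoters were among those shown above with the response element.

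The GTPases Iigp1 and Gbp2 rose by 2.23 (SE 0.23) and 1.82 (SE 0.28) on the log2 scale. Ifit1, which binds foreign RNA, rose by 1.78 (SE 0.27, adjusted p = 0.00052), with 59.6% of its UMIs in 3 cells. Among abundant members of the list, Ly6a, the surface antigen Sca-1, was at 12.6 and 11.6 CP10K against 24.0, 27.8 and 21.6. Ifitm3, an antiviral membrane protein, was at 24.2 and 23.01 against 39.2, 38.0 and 37.8. These 2 genes were seen in 361 and 480 of the 485 members, and their libraries did not overlap between groups (log2 differences 0.998, SE 0.10, and 0.69, SE 0.08). Gbp3, Gbp7, Ifi47, Bst2, Ly6e, Usp18 and Zbp1 were the other 7 that rose, with log2 differences of 0.60 to 1.49.

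Genes of antigen presentation rose beside them. Of 25 listed genes 23 were tested, 13 rose and none fell, with a median log2 difference of 0.80. Over the other settings 8 to 22 genes of the interferon list and 7 to 14 of this list rose and none fell. The 8 were of only 11 interferon genes tested at a filter of 1 CP10K, and the 7 came without Oasl1-/-Apoe-/- replicate 3. B2m, the shared light chain of class I molecules (ENSMUSG00000060802, chr2:122147686-122153083), was at 31.1 and 27.0 CP10K against 66.9, 64.1 and 68.1. It was seen in 483 members and each Oasl1-/-Apoe-/- library lay far above both others (log2 difference 1.19, SE 0.08, adjusted p = 2.7e-09). The class I heavy chains H2-D1 and H2-K1 rose by 0.71 (SE 0.08) and 0.52 (SE 0.09), and H2-Q4, H2-Q6, H2-Q7 and H2-T22 by 0.80 to 0.996. These class I genes lie in a family of similar copies, and reads may be split among them.

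The class II genes, normally high in professional antigen-presenting cells and inducible in endothelium, had some of the largest differences. H2-Aa (ENSMUSG00000036594, chr17:34282744-34287823) was at 1.19 and 0.636 CP10K against 4.25, 4.803 and 4.36, and was seen in 11.2% and 43.1% of the members of the groups. H2-Eb1 (ENSMUSG00000060586, chr17:34305867-34316674) was at 0.697 and 0.146 against 3.24, 3.61 and 2.69. Cd74, the invariant chain that guides class II assembly, was at 2.95 and 0.808 against 11.1, 15.3 and 10.6. For all 3 the groups were far apart (log2 differences 2.12, SE 0.18; 2.59, SE 0.27; and 2.79, SE 0.27), and H2-Ab1 rose by 2.23 (SE 0.24). H2-DMa and H2-DMb1, which load peptides on class II, rose by 1.56 (SE 0.30) and 1.05 (SE 0.25).

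Macrophage RNA moved the same way, so its values are given here. In members the 6 macrophage markers summed to 1.23 and 0.518 CP10K in the Apoe-/- and to 2.62, 2.92 and 1.84 in the Oasl1-/-Apoe-/- libraries. All 5 tested were higher (median log2 difference 0.95), 4 with an unadjusted limma p under 0.05 beside 617 of all 5636 genes tested. None of the 5 passed the threshold. With at least 4 of the 5 endothelial genes 2 of 4 tested passed it, and with a replicate block in the model 2 of 5. Without the 11 members with 3 or more of these markers the differences of H2-Aa and Cd74 were 2.12 and 2.80 (adjusted p = 5.46e-07 and 5.35e-07), and that of H2-Eb1 2.39. In smooth muscle cells Cd74 averaged 0.391 and 1.03 CP10K, against 1.88 and 12.3 in members.

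**Figure D3:**
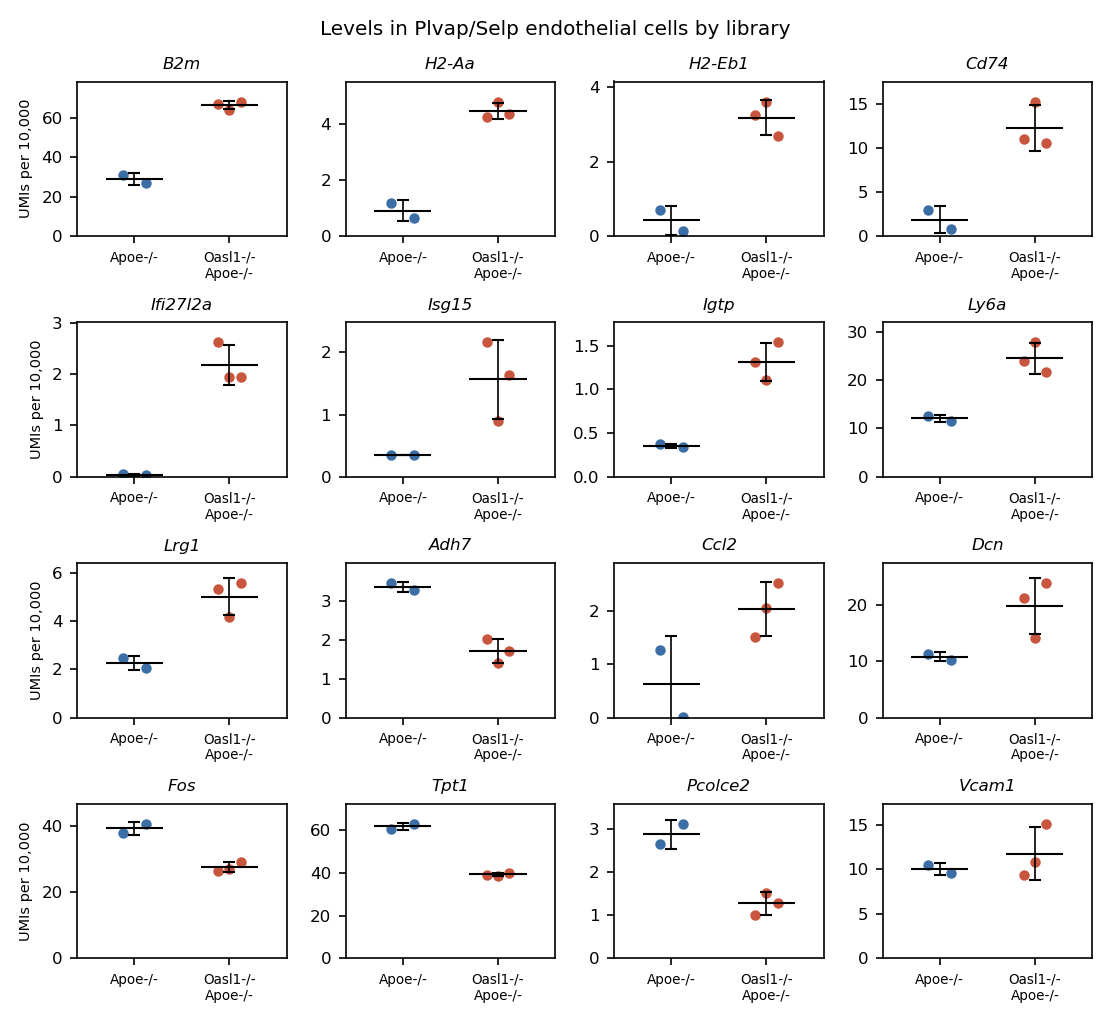
Mean UMIs per 10,000 (vertical axes from 0) in Plvap/Selp cells for 16 genes, 1 point per library (blue 2 Apoe-/-, red 3 Oasl1-/-Apoe-/-), with the group mean (line) and SD (bar). B2m lay at 27.0 and 31.1 in Apoe-/- and at 64.1 to 68.1 in Oasl1-/-Apoe-/- libraries, while Vcam1 overlapped.

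**Figure D4:**
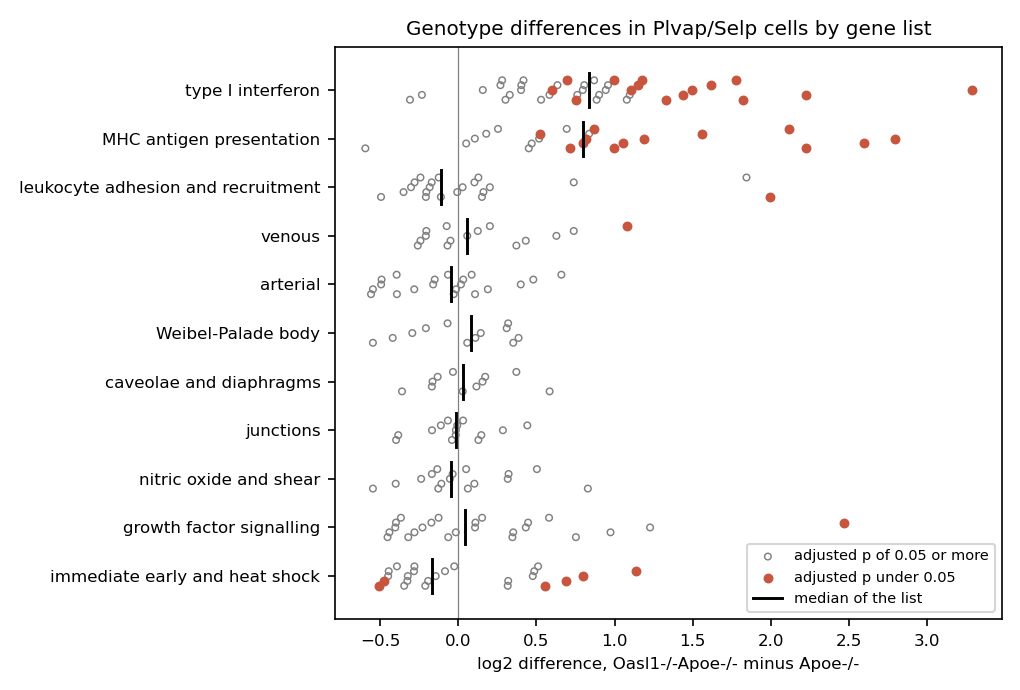
Log2 difference in Plvap/Selp cells (horizontal axis, Oasl1-/-Apoe-/- minus Apoe-/-) for each tested gene of 11 lists, filled where the adjusted p was under 0.05, with the median of each list as a bar. The medians of the interferon and antigen presentation lists were 0.84 and 0.80, and the other medians lay between -0.17 and 0.08.

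Of 27 genes of leukocyte adhesion and recruitment measured, 21 were tested, 1 rose and none fell, with a median log2 difference of -0.11. Selp and Plvap chose the cells, so their levels are given as a description only. Selp was at 4.57 and 3.83 CP10K against 3.19, 3.94 and 3.69, with overlap, and Plvap at 6.73 and 6.06 against 8.50, 7.61 and 8.91, without.

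The adhesion receptors for leukocyte integrins overlapped or fell short of the threshold. Vcam1 was at 10.5 and 9.55 CP10K against 9.38, 10.8 and 15.1, and Icam1 at 7.32 and 7.14 against 7.45, 5.2 and 5.79. Icam2 was at 5.51 and 5.83 against 4.42, 4.53 and 4.26, without overlap (log2 difference -0.35, SE 0.12, adjusted p = 0.216). Sele, E-selectin, stayed between 0.132 and 0.376 CP10K in every library, and Selplg, the ligand of P-selectin carried by leukocytes, had UMIs in 5 members.

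Ccl2, the chemokine that draws monocytes, was the gene of this list that rose, at 1.26 and 0.00685 CP10K against 1.51, 2.05 and 2.51 (log2 difference 1.99, SE 0.45, adjusted p = 0.0207). It was seen in 40 members, 61.1% of its UMIs lay in 3 of them, and the 2 Apoe-/- libraries differed widely. In limma-voom, a model of summed UMI counts, its adjusted p was 0.181. Ccl2 also missed the threshold in limma with summed UMIs (adjusted p = 0.115), with no filter on low genes (0.298) and with thinning (0.0601). Leaving out Apoe-/- replicate 2 brought the difference to 0.59 (adjusted p = 0.491), the call was also lost without Oasl1-/-Apoe-/- replicate 2 or 3 (adjusted p = 0.166 and 0.197), and leaving out the members with 3 or more macrophage markers to 1.44 (adjusted p = 0.255). Cxcl10, an interferon-induced chemokine, reached 3.82 CP10K in 1 library against 0.0350 to 0.323 in the other 4, with 95.3% of its UMIs in 3 cells (adjusted p = 0.1).

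Among the venous genes Lrg1 alone rose, 1 of 15 tested. Lrg1 (ENSMUSG00000037095, chr17:56119678-56122001) was at 2.45 and 2.06 CP10K against 5.33, 4.15 and 5.57. Each Oasl1-/-Apoe-/- library was above both Apoe-/- libraries, with UMIs in 19.8% and 34.0% of members (log2 difference 1.08, SE 0.15, adjusted p = 0.00019). Lrg1 is low in cells with Selp alone, whose share was smaller in the Oasl1-/-Apoe-/- libraries. Where both Plvap and Selp were seen Lrg1 was at 4.16 and 4.27 against 5.96, 5.597 and 7.51 CP10K, without overlap. With Plvap alone it was at 2.07 and 0.450 against 6.16, 4.01 and 4.94, also without overlap. With Selp alone it was at 0.242 and 1.015 against 0, 0.629 and 0.845, with overlap. The part of the mix of members in the difference was not tested. Emcn and Vwf overlapped, with log2 differences of -0.05 (SE 0.15) and 0.06 (SE 0.13).

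None of 20 arterial, 12 Weibel-Palade body, 11 caveolar, 14 junction and 16 nitric oxide and shear genes tested passed the threshold in limma. Of them 8, 2, 3, 0 and 3 had an unadjusted limma p under 0.05, beside 617 of all 5636 genes tested. Nos3 was at 1.76 and 1.64 CP10K against 1.41, 1.41 and 1.80 (log2 difference -0.13, SE 0.18, adjusted p = 0.852), and Apoe RNA, at 1.16 and 1.015 against 0.830, 1.09 and 0.946, did not pass the threshold either.

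Dcn and Col1a1, both from the fibroblast marker list, passed the threshold. Dcn was at 11.4 and 10.3 CP10K against 21.4, 14.2 and 23.9 (log2 difference 0.83, SE 0.15, adjusted p = 0.00192), and Col1a1, the fibrillar collagen chain, at 0.183 and 0.114 against 0.971, 0.966 and 0.520 (1.52, SE 0.26). The 5 fibroblast markers summed to 14.8 and 12.2 CP10K against 26.5, 17.5 and 29.1, of which these 2 are members. Without the 56 members with 3 or more of them the difference of Dcn was 0.10 (adjusted p = 0.894) and Col1a1 fell below the level tested, which is in part by construction since both helped to choose those cells. Without Oasl1-/-Apoe-/- replicate 3 the difference of Dcn was 0.68 (adjusted p = 0.0609), with at least 4 endothelial genes 0.28 (0.325), with Plvap above 0 it was 0.56 (0.0831), with no filter on low genes 0.83 (0.0998) and with thinning 0.44 (0.48). Col1a1 missed the threshold with at least 2 UMIs of Plvap and Selp (0.896, adjusted p = 0.437) and with thinning (0.67, adjusted p = 0.909). It also missed it in limma-voom on summed UMIs (2.17, adjusted p = 0.181). In smooth muscle cells Dcn was at 2.26 and 1.84 CP10K against 5.69, 4.91 and 5.29, and the part of free RNA in the members' values was not tested.

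Spp1, the secreted phosphoprotein osteopontin, rose by 2.69 (SE 0.27) with 78.1% of its UMIs in 3 cells. Igfbp5, a binding protein of insulin-like growth factors, rose by 2.47 (SE 0.28) with UMIs in 11 members, and the lymphatic genes Nts and Mmrn1 rose by 1.93 (SE 0.41) and 1.56 (SE 0.38) with UMIs in 11 and 8. Mmrn1 was listed at 0 among the members of both Apoe-/- libraries. In limma-voom on summed UMIs Igfbp5, Nts and Mmrn1 missed the threshold (adjusted p = 0.075, 0.191 and 0.144). Nts and Mmrn1 also missed it in limma with no filter on low genes (adjusted p = 0.235 and 0.31). Mmrn1 did so with an offset of 1 CP10K (0.118) and with thinning (0.187) too. Without the 9 members with 3 or more lymphatic genes Igfbp5, Nts and Mmrn1 were under the level tested, and Nts and Mmrn1 were among the genes that chose those cells. Nts also missed the threshold without Apoe-/- replicate 2 or Oasl1-/-Apoe-/- replicate 3 (adjusted p = 0.424 and 0.153), and Mmrn1 without Apoe-/- replicate 1 or 2 or Oasl1-/-Apoe-/- replicate 3 (0.136, 0.219 and 0.0609).

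Of 24 heat shock and immediate early genes tested 4 rose, all of them heat shock genes, and 2 fell, both immediate early genes, with a median log2 difference of -0.17. With cells thinned to 1500 UMIs 1 rose and 1 fell. Hspa8, the constitutive HSP70 chaperone, was at 14.6 and 11.98 CP10K against 20.9, 22.3 and 21.02 (log2 difference 0.69, SE 0.10, adjusted p = 0.00027), and Hsph1, Dnaja1 and Hspe1 rose by 1.14, 0.80 and 0.56. Fos, a transcription factor induced within minutes of a stimulus or of tissue dissociation, was at 38.0 and 40.7 against 26.6, 27.2 and 29.2 (-0.51, SE 0.08, adjusted p = 0.00084), and Egr1 fell by 0.47 (SE 0.12). In smooth muscle cells Fos averaged 56.6 and 51.0 CP10K.

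The largest falls other than haemoglobin were of low or middling genes. Pcolce2, an enhancer of procollagen processing, was at 2.63 and 3.11 CP10K against 0.999, 1.52 and 1.29, and Adh7, a retinol-oxidising alcohol dehydrogenase, at 3.46 and 3.28 against 2.02, 1.41 and 1.72. Neither overlapped (log2 differences -1.07, SE 0.18, and -0.91, SE 0.17). Adra2a, an adrenergic receptor, was at 0.369 and 0.557 CP10K against 0.112, 0.119 and 0.0717, in 32 members. Tpt1, an abundant growth-linked protein (ENSMUSG00000060126, chr14:75845093-75848525), was at 60.7 and 62.9 against 39.0, 38.5 and 40.1 (-0.65, SE 0.07, adjusted p = 6.2e-06), and Gadd45b, Cebpd and Cdc42ep3 fell by 0.61 to 0.65.

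Of 81 cytosolic ribosomal protein genes tested 6 fell (Rpl23, Rpl5, Rpl7a, Rplp1, Rps10 and Rps12) and Rpl35 rose, with a median log2 difference of -0.07. The haemoglobin genes Hbb-bs, Hba-a1 and Hba-a2 had the largest falls, with log2 differences of -4.28, -3.42 and -3.34. In Apoe-/- replicate 1, 5521 of the 5610 haemoglobin UMIs of members lay in 3 cells. The difference of Hbb-bs was -1.90 without the 2 members in which haemoglobin passed 1% of the UMIs (adjusted p = 9.32e-06) and -1.87 without that library. In smooth muscle cells Hbb-bs averaged 7.47 and 2.30 CP10K. Hbb-bs missed the threshold in limma-voom on summed UMIs (adjusted p = 0.342) and in limma with no filter on low genes (adjusted p = 0.108).

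In the Klk10/Stmn2 cells of the same libraries 56 of 5580 genes rose (1%) and 33 fell (0.591%), together 1.59%. Of the 94 genes that changed in members 85 were tested in both classes, of which 84 had the same sign and 43 also passed the threshold in Klk10/Stmn2 cells. B2m differed by 1.19 in members and 1.09 in Klk10/Stmn2 cells, H2-Aa by 2.12 and 2.43, and Ifi27l2a by 3.29 and 3.46. The classes share their libraries, so these values are set side by side without a test of their likeness.

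Whether the genotype difference itself differed was tested as an interaction over 6036 genes. Of these 8 had a larger and 1 a smaller value in members (0.133% and 0.0166%, together 0.149%). The 1 with a smaller value was Fabp4, a capillary gene of the rule, so its value is a description only. Iigp1 was at 0.333 and 0.229 against 1.78, 1.61 and 2.93 CP10K in members and at 0.362 and 0.496 against 0.674, 1.16 and 0.961 in Klk10/Stmn2 cells. Its difference was larger in members by 1.395 (SE 0.31, adjusted p = 0.0362), and that of Gbp2 by 1.38 (SE 0.29, adjusted p = 0.0317), which differed by 0.44 in Klk10/Stmn2 cells. These values passed the threshold in 5 and 9 of 20 other settings. No gene passed with summed UMIs, with no filter on low genes or with cells thinned to 1500 UMIs.

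**Figure D5:**
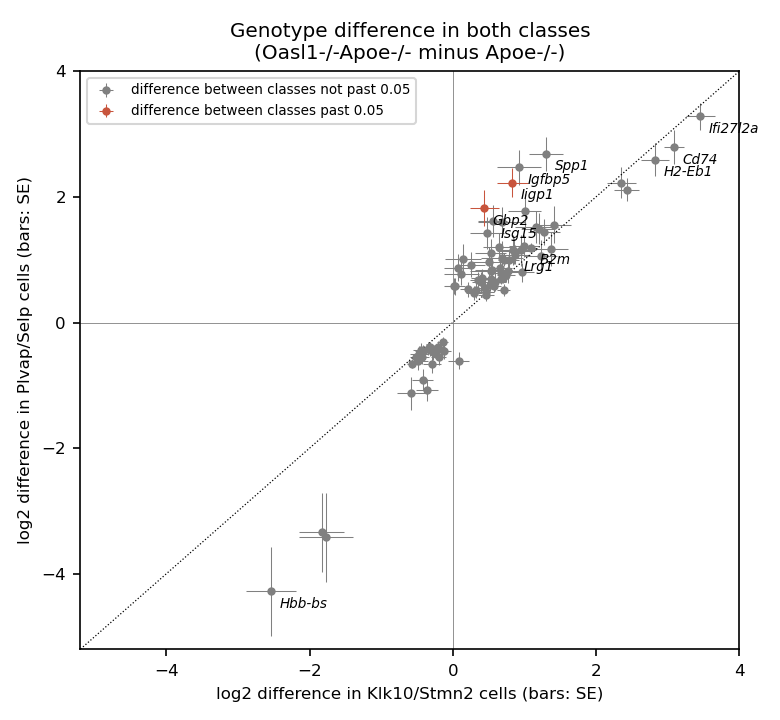
Log2 genotype difference in Klk10/Stmn2 cells (horizontal) and in Plvap/Selp cells (vertical) for the 85 genes past the threshold in the latter and tested in both, bars SE, dotted line equal values. Since the genes were chosen on the vertical axis, points above the line are favoured there, and 84 of 85 had the same sign in both classes.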

How the data were processed

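The deposited table holds 16498 genes and 18260 cells as natural log values, which the authors made by adding 1 to UMIs per 10,000 (Cell Ranger 3.1.0, mm10; Seurat 4.0.3). They had kept cells by gene number and mitochondrial share and removed doublets, so no doublet caller was run. Undoing the log gave whole UMIs for 100% of values within 0.01. A gene with no UMI in a library is called listed at 0.

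The library was the replicate. Genes were tested with limma 3.58.1 (lmFit, eBayes with trend, R 4.3.3) on log2(mean CP10K + 0.2), for means of at least 0.2 CP10K, with Benjamini-Hochberg adjustment over all genes tested. Shares used an exact permutation test. Depth was 449100 to 506900 UMIs over the members of a library. Gene positions are from GENCODE M21.

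The members and gene lists were chosen with earlier results of these data known. The text names the genes of the rule and a set of adhesion genes, list members past the threshold, the 10 largest changes each way without overlap, the 15 largest rises and 8 largest falls beside Klk10/Stmn2 cells, and the largest interactions, other than 1 gene that is not reported here. Cytl1, Gja4, Gkn3, Nr2f2, Ackr1 and Prox1 were chosen after their values were seen. Alternatives changed the offset, filter, rule, depth, scaling, model and libraries. The 9403 smooth muscle cells serve as the background for free RNA.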

Additional observations from a re-analysis of the deposited data

Results flagged for a closer look

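The genotype difference in Plvap/Selp endothelial cells differed from that in Klk10/Stmn2 cells for 9 genes by the limma interaction (adjusted p under 0.05), and 341 of the 6036 genes had an unadjusted p under 0.05. The interferon-induced GTPases Iigp1 and Gbp2 had larger differences in Plvap/Selp cells, by 1.395 and 1.38 on the log2 scale. The contractile genes Tagln and Myl9 stood at 1.09 and 1.06 and the mural cell gene Rgs5 at 1.62, all from lower values in the Klk10/Stmn2 cells of the Oasl1-/-Apoe-/- libraries. Smooth muscle markers summed to 30.8 and 20.2 CP10K in Klk10/Stmn2 cells of the Apoe-/- and to 13.9, 7.49 and 9.74 in those of the Oasl1-/-Apoe-/- libraries, and their part in these 3 values was not tested. Rgs5 turned negative (-0.47) in 1 of 18 other settings.

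Fn1, fibronectin, stood at 0.71, the ferritin gene Fth1 at 0.34 and the nuclear RNA Malat1 at 0.18. Fabp4 had the smaller difference in Plvap/Selp cells, at -1.50, and passed the threshold in 17 of 20 other settings. It is itself one of the capillary genes that the rule limits in both classes. Its value and this count are therefore a description only. The groups of 2 and 3 libraries were too small to search for single outlying libraries.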

How the results depend on the processing

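Of 61 named genes past the threshold all kept their direction in each of the 23 other settings that tested them, 5 of which (thinning, and leaving out cells high in haemoglobin or with 3 or more fibroblast, macrophage or lymphatic markers) were chosen after seeing the data. Of the 61, 22 missed the threshold in limma-voom on summed UMIs, 28 with no filter on low genes and 26 with thinning. The genes B2m, H2-D1, H2-Q7, H2-Aa, H2-Ab1, H2-Eb1, Cd74, Ifi27l2a, Isg15, Iigp1, Ifitm3, Bst2, Ly6a, Ly6e, Lrg1, Fos, Tpt1 and Adh7 passed the threshold in all 23, and Igtp in the 22 that tested it. Against 69 genes higher and 25 lower, there were 33 and 7 with no filter (more genes tested), 38 and 11 with cells thinned to 1500 UMIs, 39 lower with summed UMIs, 40 lower with cells of at least 1500 UMIs and 14 lower with Plvap above 0. Leaving out 1 library gave 37 to 75 higher and 9 to 31 lower, with 37 and 9 without Oasl1-/-Apoe-/- replicate 3, 44 higher without Apoe-/- replicate 2 and 10 lower without Oasl1-/-Apoe-/- replicate 2.

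The interaction counts of 8 and 1 became 1 higher with offset 0.05, with at least 4 of the 5 endothelial genes and without haemoglobin, mitochondrial and ribosomal protein genes, 2 without cells high in smooth muscle markers, and 5 with cells of at least 1500 UMIs or without cells with 3 or more macrophage markers. They were 0 and 0 with no filter, with summed UMIs and with thinning. Leaving out 1 library gave 0 to 7 higher and 1 to 9 lower (5, 1 and 0 higher without Oasl1-/-Apoe-/- replicate 1, 2 or 3, and 2 and 9 lower without Apoe-/- replicate 1 or 2). The causes were not tested.

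Libraries of the same replicate number did not deviate together (correlations -0.00212 and 0.00174). With a replicate block there were 82 higher and 36 lower genes, and 21 and 5 in the interaction. The difference in the share of members, 8.11 percentage points among endothelial cells, reversed to -0.19 among all cells, and was 3.07 to 10.6 in the other settings.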
